A study of Homo sapiens with 12 samples.

Results

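Syndecans, glypicans and the basement membrane proteoglycans perlecan and agrin were followed through 10 genes, SDC1, SDC2, SDC3, SDC4, GPC1, GPC3, GPC4, GPC6, HSPG2 (perlecan) and AGRN (agrin), taken by symbol from the 27968 genes of each RNA sequencing table. Their transcripts were measured in 4 groups of 3 libraries: A549, a human lung adenocarcinoma line, in Matrigel (3D), the same line in 2D culture, MDA-MB-231, a human breast cancer line, in Matrigel, and that line in 2D culture. All cells grew in DMEM with 10% FBS and received no treatment. RNA was taken on day 4 in 3D culture and at about 80% confluence in 2D culture. The study set the matrix culture against the flat one to find genes that extracellular matrix regulates in cancer cells. Each line is 1 cell line, and Matrigel is a gel of basement membrane proteins from a mouse tumour. Whether the replicate libraries stem from separate cultures is not stated in the labels, and the p-values therefore cover just the spread among these 12 libraries.

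Heparan sulfate proteoglycans are core proteins to which cells attach long sulfated sugar chains. Syndecans cross the plasma membrane and pass signals to the cytoskeleton, glypicans are held in the outer membrane leaflet by a lipid anchor, and perlecan and agrin are secreted into basement membranes. The chains bind growth factors, matrix proteins and chemokines, and their sulfation pattern sets which of these they hold. In epithelial tumours these genes are studied as coreceptors for growth factors and as links between the cell and the matrix.

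Library totals ran from 5609327 to 28171901 expected counts, with both extremes in A549 3D (replicate 2 lowest, replicate 3 highest). The mean fragment length was 134 to 141 bases in A549 3D against 176 to 187 bases in A549 2D, and 181 to 188 bases in MDA-MB-231 3D against 208 to 217 bases in MDA-MB-231 2D. Ribosomal RNA made up 3.59% to 16.6% of counts in A549 3D against 0.320% to 0.497% in A549 2D, and 4.75% to 7.30% in MDA-MB-231 3D against 1.49% to 1.53% in MDA-MB-231 2D. The coefficient of biological variation was 0.180 in A549 3D against 0.0377 in A549 2D, with 0.0563 in MDA-MB-231 3D against 0.0538 in MDA-MB-231 2D. These measures moved with culture, and their part in the results below was not tested. The 4 keratin markers of epithelium were above 1 TPM in both lines. All 5 markers of differentiated lung epithelium were under 1 TPM in A549, and 2 of the 3 breast receptor markers, those of the steroid receptors, were under 1 TPM in MDA-MB-231. Mesenchymal markers summed to 267 to 361 TPM in A549 3D against 675 to 701 TPM in A549 2D, and to 2982 to 3166 TPM in MDA-MB-231 3D against 2967 to 3024 TPM in MDA-MB-231 2D. These sums were mostly VIM. In MDA-MB-231 ZEB1 averaged 16.2 TPM in 3D against 35.3 TPM in 2D, and CDH2 0.0933 TPM against 0.72 TPM. CDH2 was higher in A549, at 10.4 TPM in 3D and 35.7 TPM in 2D. The 7 leukocyte markers summed to 17.1 to 30.1 TPM in A549 3D against 5.50 to 6.43 TPM in A549 2D and to 247 to 274 TPM in MDA-MB-231 3D against 129 to 148 TPM in MDA-MB-231 2D, mostly CD68 and CD14, with 4 of the 7 under 1 TPM in every group. The 5 endothelial markers summed to at most 0.22 TPM in A549 and 5.67 TPM in MDA-MB-231, and the 5 fibroblast markers to at most 2.03 and 4.85 TPM.

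The RefSeq promoter table (build GRCh38.p14) held windows for 7 of the 10 genes, and the 250 bases before the transcription start are shown for 4 genes whose changes in MDA-MB-231 the results turn on, 3 that rose in Matrigel (SDC4, SDC1, HSPG2) and 1 that fell (GPC6). SDC4 lies at chr20:45348425-45348674 on the minus strand, SDC1 at chr2:20225131-20225380 (minus, the downstream of its 2 windows), HSPG2 at chr1:21937311-21937560 (minus) and GPC6 at chr13:93226557-93226806 (plus). Capitals mark a match to the NF-kB consensus in SDC4 and SDC1, GC boxes (GGGCGG or its complement CCGCCC) in HSPG2, and a TATA box (TATAAA) in GPC6.
SDC4: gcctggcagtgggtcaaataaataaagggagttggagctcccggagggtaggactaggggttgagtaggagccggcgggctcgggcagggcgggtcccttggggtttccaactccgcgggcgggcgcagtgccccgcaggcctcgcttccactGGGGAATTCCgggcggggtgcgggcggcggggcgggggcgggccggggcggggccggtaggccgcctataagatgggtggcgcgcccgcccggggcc
SDC1: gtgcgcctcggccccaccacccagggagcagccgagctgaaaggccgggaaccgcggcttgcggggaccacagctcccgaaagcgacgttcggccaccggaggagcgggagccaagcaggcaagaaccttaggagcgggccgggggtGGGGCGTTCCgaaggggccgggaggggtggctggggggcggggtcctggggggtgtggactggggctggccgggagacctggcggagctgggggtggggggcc
HSPG2: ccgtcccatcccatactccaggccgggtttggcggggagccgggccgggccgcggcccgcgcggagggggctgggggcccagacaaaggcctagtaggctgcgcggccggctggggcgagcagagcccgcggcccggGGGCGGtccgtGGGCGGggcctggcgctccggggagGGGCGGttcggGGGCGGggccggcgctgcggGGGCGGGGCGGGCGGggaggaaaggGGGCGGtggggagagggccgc
GPC6: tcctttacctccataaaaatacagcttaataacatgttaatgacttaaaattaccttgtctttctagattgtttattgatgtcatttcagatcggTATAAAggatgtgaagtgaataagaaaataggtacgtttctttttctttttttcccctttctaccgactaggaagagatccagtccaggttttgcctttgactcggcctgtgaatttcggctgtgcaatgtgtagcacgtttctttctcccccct
Both strands were searched for each motif, and overlapping matches were counted, so GC boxes can share bases. The SDC4 window held 8 GC boxes, as did that of HSPG2, the SDC1 window held 1 and the GPC6 window 0. Of 35116 such windows of all genes, 42.64% held a GC box, 10.72% a TATA box and 9.961% an NF-kB match. The share of G and C was 73.6% in the SDC4 window, 75.2% in SDC1, 82.8% in HSPG2 and 37.6% in GPC6, against a median of 58.0% over all windows. The GC box counts of the windows not shown were 5 in SDC3, 4 in GPC1, 2 in GPC4 and 1 in the upstream window of SDC1. These are matches of letters, and no binding was measured.

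The lines used different core proteins. SDC1, the syndecan of epithelia, was the most abundant of the 10 transcripts in A549, and SDC4, the syndecan of focal adhesions, was the most abundant in MDA-MB-231, in both cultures. Levels between genes are compared in TPM, a count scaled to transcript length and library total. In A549 3D the order of mean TPM was SDC1 (73.8), GPC1 (24.0), AGRN (11.2), SDC4 (8.64), HSPG2 (5.85), SDC3 (2.80), GPC6 (2.29) and SDC2 (0.130). Neighbours from GPC1 to GPC6 in that order had overlapping ranges over the libraries, and only SDC1 at the top and SDC2 at the bottom stood apart from their neighbours. Within each library, however, the order from SDC1 to SDC3 was the same. Only SDC3 and GPC6 changed places, in replicate 2 (2.08 and 2.57 TPM). In A549 2D the order was SDC1 (127), GPC1 (50.0), SDC4 (32.5), AGRN (29.5), HSPG2 (9.56), GPC6 (3.34), SDC3 (2.31) and SDC2 (0.0767). Among these only the ranges of SDC4 and AGRN overlapped, with SDC4 the higher in each library.

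In MDA-MB-231 3D the order was SDC4 (233.6 TPM), SDC1 (59.9), AGRN (56.7), SDC3 (24.4), HSPG2 (16.7), SDC2 (8.50), GPC1 (5.51), GPC6 (1.49) and GPC4 (0.0567), with no overlap between neighbours. In MDA-MB-231 2D it was SDC4 (183.7 TPM), SDC1 (52.1), AGRN (49.4), SDC3 (35.3), SDC2 (21.1), HSPG2 (10.3), GPC1 (5.95), GPC6 (4.67) and GPC4 (0.473). Only the ranges of SDC1 and AGRN overlapped there, with SDC1 the higher in each library. GPC3, a glypican of fetal tissue and liver cancer, had 0 counts in all 12 libraries, which allows up to 0.106 to 0.535 CPM depending on the library's depth.

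SDC1 held 57.6% ± 1.90 of the summed TPM of the 10 genes in A549 3D, where A549 2D gave 50.0% ± 1.18 (SD, n = 3 each). Its share was 14.7% ± 0.115 in MDA-MB-231 3D, where MDA-MB-231 2D gave 14.4% ± 0.325. SDC4 held 6.76% ± 0.407 in A549 3D, where A549 2D gave 12.8% ± 0.0845, and its share in MDA-MB-231 3D was 57.4% ± 0.647, where MDA-MB-231 2D gave 50.7% ± 1.30. GPC1 held 18.5% ± 1.79 in A549 3D, where A549 2D gave 19.7% ± 0.507, and 1.36% ± 0.0867 in MDA-MB-231 3D, where MDA-MB-231 2D gave 1.64% ± 0.0708. The leading syndecan of each line therefore held a larger share in 3D than in 2D, in all 3 libraries of each group. The TPM ratio of SDC4 to SDC1 was 0.114, 0.121 and 0.118 in A549 3D against 0.258, 0.247 and 0.261 in A549 2D. In MDA-MB-231 the same ratio was 3.90, 3.97 and 3.83 in 3D against 3.59, 3.35 and 3.67 in 2D. The SDC4 to SDC1 ratio was lower in every 3D library of A549 and higher in every 3D library of MDA-MB-231 than in the 2D libraries of the same line. A trend of the changes with gene length was also fitted over all genes. With that trend removed from the counts in edgeR, the log2 change of the SDC4 to SDC1 ratio was -1.15 in A549 against -1.08 before. In MDA-MB-231 it was 0.01 against 0.14 before. The higher ratio in MDA-MB-231 3D was therefore nearly gone once the length trend was removed.

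**Figure D1:**
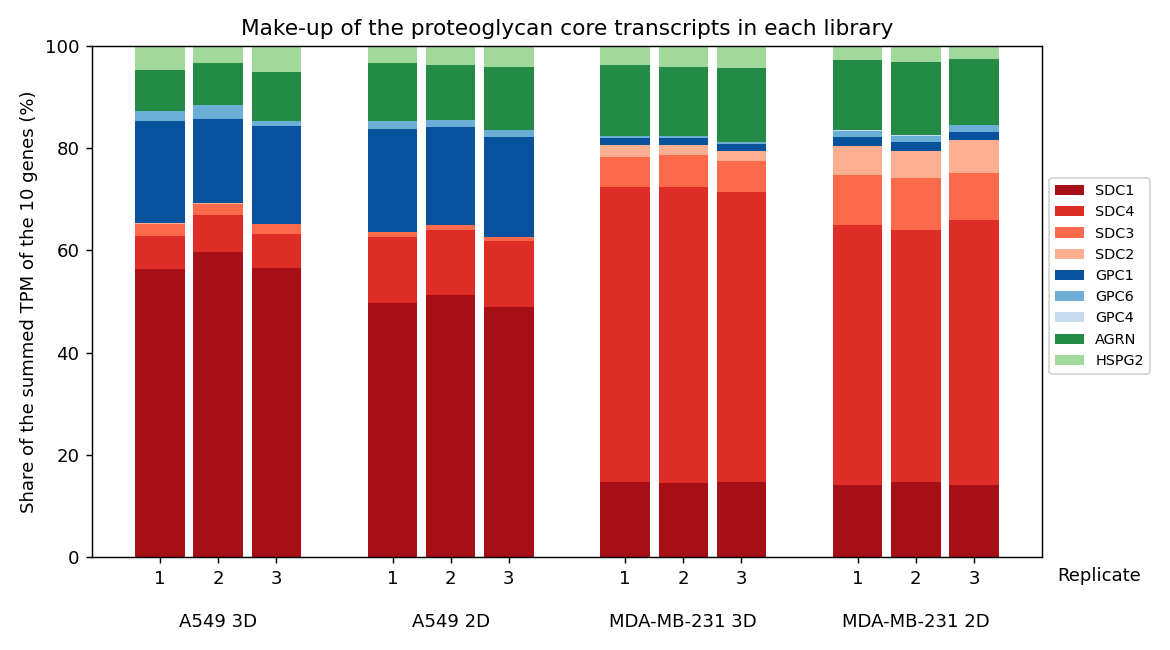
Share (%) of each core protein gene in the summed TPM of the 10 genes, one stacked bar per library, with the 3 replicates of each group side by side (GPC3 is at 0). SDC1 (dark red) takes 50.0% to 57.6% of the bar on average in A549, and SDC4 (red) 50.7% to 57.4% in MDA-MB-231.

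In Matrigel the lines moved in opposite directions for SDC4 and AGRN, which fell in A549 and rose in MDA-MB-231. SDC1 and HSPG2 rose in MDA-MB-231, SDC2 and GPC6 fell there, and in A549 GPC1 fell and SDC3 rose. Tests were run on expected counts scaled by TMM, printed as CPM (counts scaled to library size), with edgeR's quasi-likelihood test, and 8 of the 10 genes passed the filter on low counts, all but GPC3 and GPC4. In A549 4 of the 8 genes tested passed at an adjusted p under 0.05 (1 higher, 3 lower), where 65.6% of the 15304 genes tested passed (34.1% higher, 31.5% lower). The median log2 change was -0.19 over the 8 genes and 0.03 over all genes in A549. In MDA-MB-231 6 of the 8 passed (4 higher, 2 lower), where 67.6% of all genes passed (33.4% higher, 34.2% lower), and the median was 0.46 over the 8 genes and 0.00 over all genes. Both shares are near those of all genes. Bulk RNA cannot tell fewer cells that express a gene from less RNA per cell.

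Without A549 3D replicate 3, 7 of the 8 genes passed in A549 (2 higher, 5 lower), as SDC1, SDC2 and HSPG2 joined the 4, where 61.2% of the 15507 genes tested in that fit passed (31.1% higher, 30.1% lower). Each other fit that left out 1 library passed the same number as all 12 libraries, 4 of 8. Among the A549 3D libraries, replicate 3 was the highest and replicate 2 the lowest for 6 of the 8 genes (SDC1, SDC3, SDC4, GPC1, HSPG2 and AGRN), and the order was the other way round for GPC6.

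**Figure D2:**
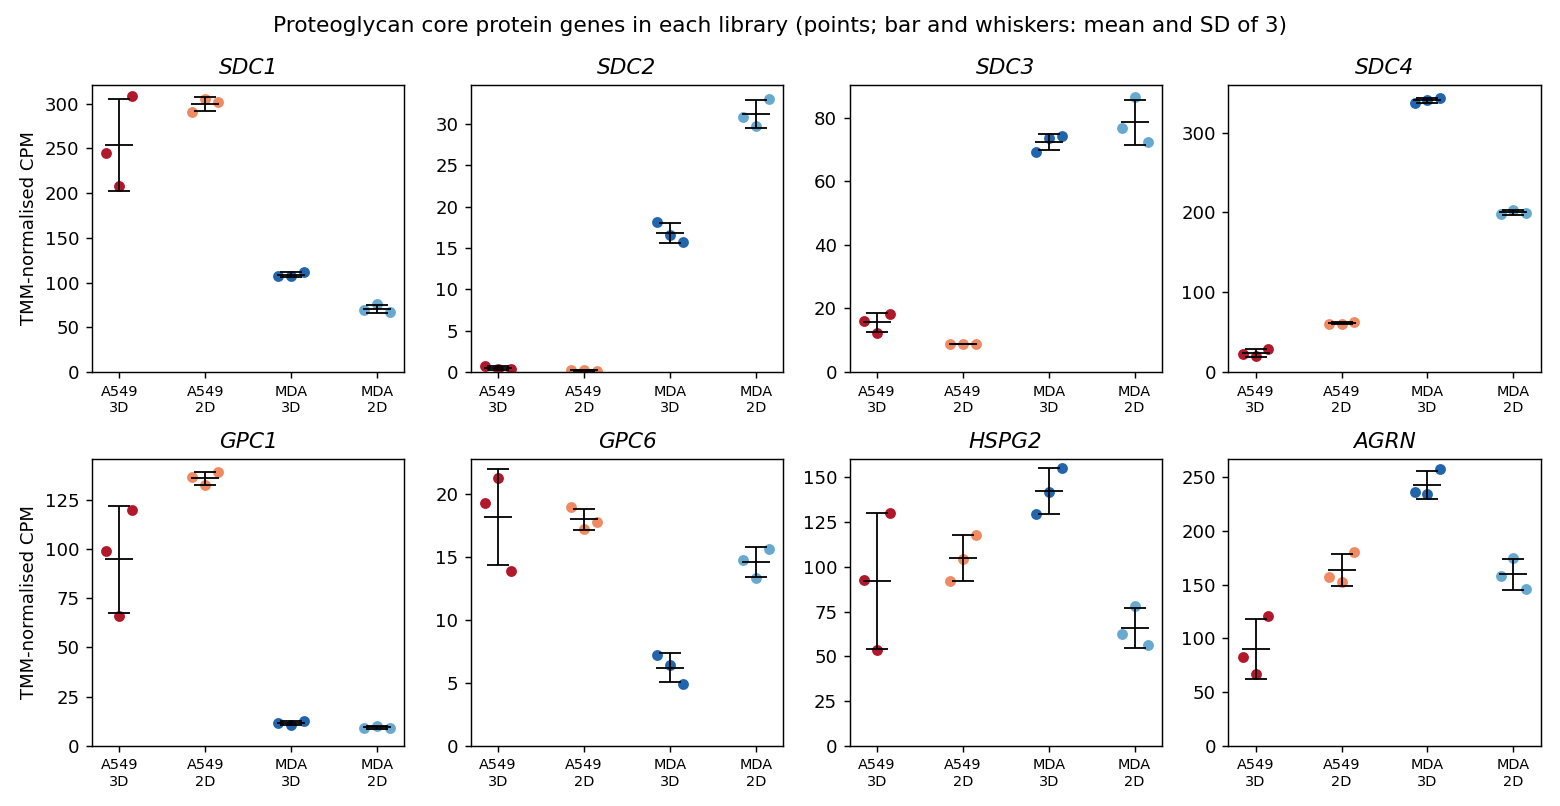
TMM-normalised CPM of the 8 genes tested, one panel per gene with its own linear axis from 0. Points are libraries (3 per group), bars and whiskers are the mean and SD, and 3D stands left of 2D for A549 and for MDA-MB-231; SDC4 and AGRN are lower in A549 3D than in A549 2D and higher in MDA-MB-231 3D than in MDA-MB-231 2D.

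SDC4 is the syndecan that gathers at focal adhesions and activates protein kinase C alpha through its cytoplasmic tail. It had 22.3, 20.1 and 29.2 CPM in A549 3D, against 60.4, 60.7 and 63.2 CPM in A549 2D. It had 337, 341 and 343 CPM in MDA-MB-231 3D, against 198, 203 and 199 CPM in MDA-MB-231 2D. All 3D libraries were below the 2D libraries in A549 and above them in MDA-MB-231, with no overlap. The edgeR change was -1.31 ± 0.10 (log2, SE) in A549, 2.48-fold lower, with an adjusted p of 2.83e-08. In MDA-MB-231 it was 0.77 ± 0.09, 1.70-fold higher, with an edgeR adjusted p of 2.21e-06. The change in A549 minus that in MDA-MB-231 was -2.08 ± 0.14 (edgeR adjusted p = 9.92e-09).

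AGRN encodes agrin, which organises the neuromuscular junction and binds laminin in basement membranes. It had 82.4, 66.6 and 121 CPM in A549 3D, against 157, 153 and 180.4 CPM in A549 2D. It had 237, 234 and 257 CPM in MDA-MB-231 3D, against 158, 174 and 146 CPM in MDA-MB-231 2D. The 3D and 2D libraries did not overlap in either line, and the 2D levels of the lines did. AGRN fell by 0.83 ± 0.15 in A549 (log2, SE; edgeR adjusted p = 0.00019) and rose by 0.61 ± 0.15 in MDA-MB-231 (edgeR adjusted p = 0.00191). The difference between these changes was -1.44 ± 0.21 (edgeR adjusted p = 3.62e-05).

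HSPG2 encodes perlecan, a large basement membrane proteoglycan that binds laminin, nidogen and growth factors. It had 92.5, 53.7 and 130.1 CPM in A549 3D, against 92.2, 105 and 118 CPM in A549 2D. It had 129.6, 142 and 155 CPM in MDA-MB-231 3D, against 62.4, 78.3 and 56.5 CPM in MDA-MB-231 2D. The A549 3D libraries spread to both sides of the 2D libraries, and the MDA-MB-231 3D libraries all lay above the 2D ones. In A549 the change was -0.15 ± 0.21 and did not pass (edgeR adjusted p = 0.554), while in MDA-MB-231 HSPG2 rose by 1.12 ± 0.21, 2.17-fold (edgeR adjusted p = 0.000207). The difference between lines was -1.26 ± 0.30 (edgeR adjusted p = 0.00193). HSPG2 has the longest transcript of the 10 genes, 14340 bases at least. A trend with gene length, fitted over all genes, stood 0.619 (log2) higher in A549 3D than in A549 2D at the length of HSPG2. It stood at 0.02 at AGRN (7326 bases) and 0.002 at GPC6 (7119 bases). In MDA-MB-231, 3D minus 2D, the trend stood at -0.052 at HSPG2, -0.339 at AGRN and -0.344 at GPC6. With the trend removed HSPG2 changed by -0.77 in A549 (edgeR adjusted p = 0.00369). Leaving out A549 3D replicate 3 gave -0.50 (edgeR adjusted p = 0.0313), and leaving out replicate 2 gave 0.10 (edgeR adjusted p = 0.542). The TPM ratio of AGRN to HSPG2 was 1.76, 2.45 and 1.83 in A549 3D against 3.38, 2.89 and 3.03 in A549 2D. It was 3.62, 3.27 and 3.29 in MDA-MB-231 3D against 5.04, 4.42 and 5.13 in MDA-MB-231 2D. In both lines every 3D library had a lower AGRN to HSPG2 ratio than every 2D library. With the length trend removed the log2 change of this ratio was -0.08 in A549 against -0.68 before, so it nearly vanished. In MDA-MB-231 it was -0.22 against -0.51 before. Gene length as a cause of the change in ratio was not tested.

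SDC1 is a coreceptor on epithelial cells whose outer domain can be shed by proteases. It had 244, 207 and 309 CPM in A549 3D, against 291, 306 and 301 CPM in A549 2D. It had 108, 107 and 112 CPM in MDA-MB-231 3D, against 68.8, 75.7 and 67.6 CPM in MDA-MB-231 2D. The A549 groups overlapped through replicate 3 of 3D, and the MDA-MB-231 groups stood apart. The A549 change of -0.23 ± 0.11 did not pass (edgeR adjusted p = 0.0719), and it was -0.40 without A549 3D replicate 3 (edgeR adjusted p = 0.000395), -0.11 without A549 3D replicate 2 (edgeR adjusted p = 0.253) and -0.11 with the length trend removed (edgeR adjusted p = 0.332). It also passed without a filter on low counts, at -0.26 (edgeR adjusted p = 0.0435), and with small RNA genes removed, at -0.25 (edgeR adjusted p = 0.0409). In MDA-MB-231 SDC1 rose by 0.62 ± 0.11 (edgeR adjusted p = 0.000124). The difference between lines was -0.85 ± 0.16 (edgeR adjusted p = 0.000233).

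SDC2, a syndecan of mesenchymal cells, was close to undetected in A549, with 6, 2 and 8 counts in A549 3D and 4, 5 and 2 counts in A549 2D. It had 18.1, 16.6 and 15.7 CPM in MDA-MB-231 3D, against 30.9, 29.8 and 33.1 CPM in MDA-MB-231 2D. Every 3D library of MDA-MB-231 was below every 2D library. SDC2 fell by 0.90 ± 0.10 in MDA-MB-231, 1.87-fold (edgeR adjusted p = 1.22e-06). The A549 change of 1.04 ± 0.47 rested on those few counts and did not pass (edgeR adjusted p = 0.0863). It was 1.56 without A549 3D replicate 3 (edgeR adjusted p = 0.039) and 0.66 without A549 3D replicate 1 (edgeR adjusted p = 0.357). The difference between lines was 1.94 ± 0.49 (edgeR adjusted p = 0.00323).

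SDC3 is the syndecan of neural tissue. It had 16.2, 12.3 and 18.3 CPM in A549 3D, against 8.85, 8.88 and 8.88 CPM in A549 2D. It had 69.3, 73.5 and 74.2 CPM in MDA-MB-231 3D, against 76.7, 86.4 and 72.5 CPM in MDA-MB-231 2D. All A549 3D libraries were above the 2D libraries, and the MDA-MB-231 groups overlapped. SDC3 was the only one of the 8 genes that rose in A549, by 0.87 ± 0.13 or 1.83-fold (edgeR adjusted p = 1.68e-05). In MDA-MB-231 the change was -0.12 ± 0.10 (edgeR adjusted p = 0.3), or 0.21 with the length trend removed (edgeR adjusted p = 0.0661), and the difference between lines was 0.99 ± 0.16 (edgeR adjusted p = 7.21e-05).

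GPC1, a glypican that presents fibroblast growth factors to their receptors, had 99.2, 65.8 and 119.8 CPM in A549 3D, against 137, 133 and 139 CPM in A549 2D. It had 11.5, 10.8 and 12.5 CPM in MDA-MB-231 3D, against 9.07, 10.3 and 8.81 CPM in MDA-MB-231 2D. Neither pair of groups overlapped. GPC1 fell by 0.49 ± 0.14 in A549, 1.41-fold (edgeR adjusted p = 0.00649), and the value was -0.31 without A549 3D replicate 2 (edgeR adjusted p = 0.00359). The MDA-MB-231 change of 0.31 ± 0.18 did not pass with all 12 libraries (edgeR adjusted p = 0.141) and passed without A549 3D replicate 2, at 0.31 (edgeR adjusted p = 0.016), or with the MDA-MB-231 libraries alone, at 0.31 (edgeR adjusted p = 0.0106). On TPM its sign turned, at -0.09 (limma adjusted p = 0.698), with a mean of 5.51 TPM in MDA-MB-231 3D against 5.95 TPM in MDA-MB-231 2D. The difference between lines was -0.80 ± 0.23 (edgeR adjusted p = 0.0073).

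GPC6, a glypican whose loss in humans causes a skeletal dysplasia, had 19.3, 21.3 and 13.9 CPM in A549 3D, against 19.0, 17.3 and 17.8 CPM in A549 2D. It had 7.20, 6.45 and 4.93 CPM in MDA-MB-231 3D, against 14.8, 13.4 and 15.7 CPM in MDA-MB-231 2D. The A549 groups overlapped and the MDA-MB-231 groups did not. GPC6 fell by 1.26 ± 0.16 in MDA-MB-231, 2.39-fold (edgeR adjusted p = 3.45e-06), while the A549 change was -0.06 ± 0.15 (edgeR adjusted p = 0.759), with 0.16 without A549 3D replicate 3 and -0.19 without replicate 2 (edgeR adjusted p = 0.305 and 0.242). The difference between lines was 1.20 ± 0.22 (edgeR adjusted p = 0.000208). With the length trend removed the GPC6 change in MDA-MB-231 was -0.92 (edgeR adjusted p = 8.47e-05). The difference between lines was then 0.85 (edgeR adjusted p = 0.00301). GPC4 was seen almost only in MDA-MB-231, with 2, 2 and 1 counts in 3D against 18, 23 and 11 counts in 2D. A549 held 0, 0 and 1 GPC4 counts in 3D and 0 in all 3 libraries in 2D. In a fit with no filter on low counts GPC4 fell by 2.80 (log2) in MDA-MB-231 (edgeR adjusted p = 0.000267). That fit passed 4 of the genes as higher and 3 as lower in MDA-MB-231 (GPC4, SDC2 and GPC6). Of the 21994 genes tested in it, 4979 were higher and 5340 lower. GPC3, at 0 counts, could not be tested.

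The change in Matrigel differed between the lines for all 8 genes tested, where 56.1% of all genes passed the same test (29.3% higher, 26.7% lower). The difference, A549 minus MDA-MB-231, was below 0 for SDC4, AGRN, HSPG2, SDC1 and GPC1 and above 0 for SDC3, GPC6 and SDC2. The 8 differences ran from -2.08 for SDC4 to 1.94 for SDC2, with a median of -0.83 over the 8 genes and 0.07 over all genes. Each of the 8 kept its direction and passed in every alternative fit that was run, including those on TPM and those that left out 1 library.

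**Figure D3:**
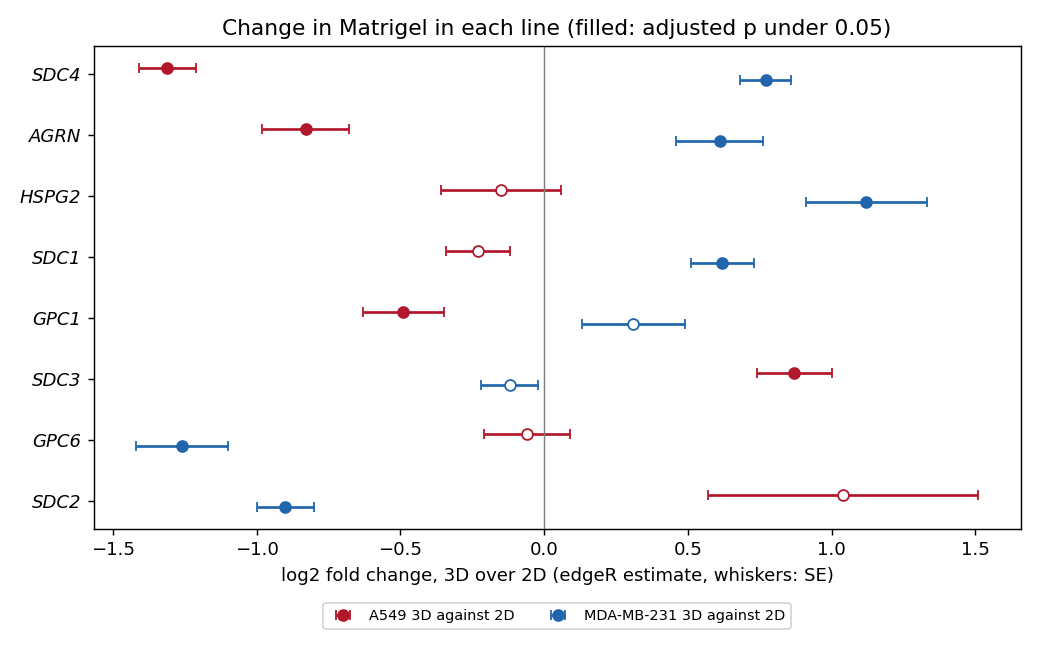
Log2 fold change of 3D over 2D (edgeR estimate, whiskers SE) for the 8 genes tested, A549 in red above MDA-MB-231 in blue, with filled points for an adjusted p under 0.05. For the top 5 genes the A549 value is left of the MDA-MB-231 value (SDC4 at -1.31 against 0.77), and for the lower 3 it is to the right (SDC2 at 1.04 against -0.90).

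The scale matters for the changes within a line. On TPM, which was deposited and not rescaled by TMM, the median of all genes shifted by -0.38 in A549 and by -0.25 in MDA-MB-231 (log2 of TPM + 1). With limma on that scale 2290 genes passed as higher and 8626 as lower in A549, where edgeR on TMM-scaled counts called 5222 higher and 4820 lower, and 2532 higher and 7491 lower in MDA-MB-231, where edgeR called 5118 and 5234. On TPM 6 of the 8 genes passed in A549, all lower, where 71.3% of all genes passed (15% higher, 56.4% lower), and 5 in MDA-MB-231 (2 higher, 3 lower), where 65.5% of all genes passed (16.5% higher, 48.9% lower). SDC4 changed by -1.82 in A549 and 0.35 in MDA-MB-231 and passed in both (limma adjusted p = 7.74e-08 and 0.0272). The fall of AGRN in A549 was -1.36 (limma adjusted p = 2.47e-05) and its change in MDA-MB-231 was 0.20 and did not pass (limma adjusted p = 0.376). The rise of SDC3 in A549 was 0.18 and did not pass (limma adjusted p = 0.189). SDC1 passed in A549 at -0.81 (limma adjusted p = 0.000192) and did not pass in MDA-MB-231 at 0.20 (limma adjusted p = 0.228). HSPG2 passed as lower in A549 at -0.70 (limma adjusted p = 0.0182) and as higher in MDA-MB-231 at 0.66 (limma adjusted p = 0.0251). GPC1 in A549 was -1.08, GPC6 in A549 was -0.40 and SDC3 in MDA-MB-231 was -0.51, and all 3 passed as lower (limma adjusted p = 0.000184, 0.0057 and 0.00212). Each is a change relative to the library total, whereas the TMM values are relative to the bulk of the genes.

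A549 was set against MDA-MB-231 within each culture. In 3D all 8 genes differed between the lines, 3 higher in A549 and 5 lower, where 83% of all genes did (43.9% higher, 39.2% lower). In 2D 6 of the 8 differed (3 higher, 3 lower), where 81.6% of all genes did (42.8% higher, 38.8% lower). GPC1 was 8.34-fold higher in A549 in 3D and 14.5-fold higher in 2D. SDC1 was 2.34-fold higher in A549 in 3D and 4.24-fold higher in 2D. SDC2 was 39.2-fold lower in A549 in 3D and 150.1-fold lower in 2D, SDC3 was 4.45-fold and 8.85-fold lower, and SDC4 was 13.8-fold and 3.26-fold lower. The edgeR adjusted p of these 10 values was at most 4.07e-08. GPC1 and SDC1 led in A549, and SDC2, SDC3 and SDC4 led in MDA-MB-231, in both cultures.

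AGRN differed by 0.03 ± 0.15 (log2, A549 over MDA-MB-231) in 2D (edgeR adjusted p = 0.834) and was lower in A549 in 3D, at -1.40 ± 0.15 (edgeR adjusted p = 4.09e-07). GPC6 differed by 0.30 ± 0.14 in 2D (edgeR adjusted p = 0.053) and was higher in A549 by 1.50 ± 0.17 in 3D (edgeR adjusted p = 4.37e-07). HSPG2 was higher in A549 in 2D, by 0.68 ± 0.21 (edgeR adjusted p = 0.00753), and lower in A549 in 3D, at -0.59 ± 0.21 (edgeR adjusted p = 0.0172). In 3D the HSPG2 value was -0.53 without MDA-MB-231 3D replicate 3 (edgeR adjusted p = 0.0556), -0.34 without A549 3D replicate 2 and -0.94 without A549 3D replicate 3. The GPC6 difference in 2D passed without A549 3D replicate 2 or 3 or MDA-MB-231 3D replicate 3, at 0.30 each time (edgeR adjusted p = 0.0238, 0.0113 and 0.0449). It also passed with the 2D libraries alone, at 0.26, and with the length trend removed, at 0.35 (edgeR adjusted p = 0.00564 and 0.0256). With no filter on low counts it was 0.29 and with upper-quartile scaling 0.33 (edgeR adjusted p = 0.0463 and 0.0409). Limma voom with quality weights gave 0.29 (limma adjusted p = 0.00368). On TPM, where the median of all genes shifted by -0.56 in 2D and -0.64 in 3D, AGRN and GPC6 both passed as lower in A549 in 2D, at -0.73 and -0.38 (limma adjusted p = 0.0025 and 0.00637), and HSPG2 was -0.09 and did not pass (limma adjusted p = 0.729). GPC6 in 2D was thus called in opposite directions by the TPM fit and by the edgeR fits that passed it, and in 3D it was higher in A549 on TPM too, at 0.40 (limma adjusted p = 0.00431). There the calls over all genes were 3181 higher and 9487 lower in 2D against 6544 and 5941 by edgeR, and 3543 higher and 9560 lower in 3D against 6715 and 5993 by edgeR. SDC1 in 3D was 0.26 on TPM and did not pass (limma adjusted p = 0.093). These comparisons and those of 3D against 2D use the same libraries.

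The 2 genes whose pattern was most like that of each of the 8 genes were found as the smallest root mean square difference in centred log2 CPM over the 12 libraries, among genes with a mean log2 CPM of at least 3. SDC1 lay nearest to MRPS12 and RETREG3 (0.11 each), AGRN to DPH2 and DBN1 (0.12 each) and GPC6 to MOSMO and WASHC4 (0.13 each). SDC4 lay nearest to MICAL2 and S100A2 (0.19 each). MICAL2, an actin-oxidising enzyme, averaged 42.8 CPM in A549 3D against 110.0 in A549 2D, while MDA-MB-231 3D averaged 513 against 280.2 in MDA-MB-231 2D. HSPG2 lay nearest to PI4K2A and NCKAP5L (0.19 each), GPC1 to PHLDA3 (0.15) and FBXO17 (0.16) and SDC3 to PPT2 (0.16) and FNBP1 (0.19). SDC2 lay nearest to ANKRD1 (0.35) and PLAC8 (0.38). Its own mean was under the level asked of the genes searched, with 2 to 8 counts in the A549 libraries. Whether a gene at the level of SDC2 lies closer was not tested.

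The genes that build, trim and bind the chains were read from 9 lists with 123 genes, whose counts by edgeR are given first and those on TPM, where most genes that passed were lower, beside them. The shares over all genes to set beside every list were 34.1% higher and 31.5% lower in A549 by edgeR, and 33.4% and 34.2% in MDA-MB-231. On TPM they were 15% higher and 56.4% lower in A549, and 16.5% and 48.9% in MDA-MB-231. No list was tested as a set against these shares. Among genes of the linkage region and precursor supply, which start the chain and feed it with sugars and sulfate, 15 of 15 were tested. In A549 3D 6 were higher and 2 lower (median 0.10). In MDA-MB-231 3D 6 were higher and 5 lower (median 0.00, or 0.04 without the gene at or under 3 counts in both groups). On TPM 1 were higher and 11 lower in A549, and 4 higher and 8 lower in MDA-MB-231. SLC26A2, the sulfate transporter, averaged 34.0 ± 0.452 CPM in A549 3D against 232 ± 14.5 CPM in A549 2D, with 30.0 ± 1.53 CPM in MDA-MB-231 3D against 59.1 ± 4.33 CPM in MDA-MB-231 2D (SD, n = 3 each). SLC26A2 fell by 2.77 ± 0.08 in A549 (edgeR adjusted p = 8.25e-13) and fell by 0.98 ± 0.08 in MDA-MB-231 (edgeR adjusted p = 5.13e-08). PAPSS2, which makes the sulfate donor, rose by 1.79 in A549 and fell by 0.54 in MDA-MB-231 (edgeR adjusted p = 1.14e-11 and 5.35e-06). PAPSS1, its partner enzyme, rose by 0.32 in A549 on the TMM scale (edgeR adjusted p = 0.000636) and was -0.23 on TPM (limma adjusted p = 0.0102). B3GAT3, which adds the last sugar of the linker, rose by 1.52 in MDA-MB-231, and FAM20B, the xylose kinase of the linker, fell by 0.80 there (edgeR adjusted p = 1.41e-08 and 7.49e-08).

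Of the EXT family that polymerises heparan sulfate, 4 of 5 genes were tested, with 0 higher and 3 lower in A549 3D (median -0.55) and 2 higher and 1 lower in MDA-MB-231 3D (median 0.19). The TPM fit gave 0 higher and 4 lower in A549, and 0 higher and 2 lower in MDA-MB-231. EXT1, a subunit of the polymerase, fell by 0.72, EXTL2 fell by 0.56 and EXTL3 fell by 0.54 in A549 (edgeR adjusted p = 1.47e-06, 0.000346 and 0.00013). In MDA-MB-231 EXTL3 rose by 0.64 and EXT2, the polymerase partner of EXT1, by 0.51, while EXTL2 fell by 1.05 (edgeR adjusted p = 1.32e-05, 0.000618 and 1.72e-07). On TPM the rises of EXTL3 and EXT2 were 0.26 and 0.08 and did not pass (limma adjusted p = 0.0551 and 0.648).

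Of the enzymes that sulfate and epimerise the chain, 11 of 16 were tested. In A549 3D 2 were higher and 1 lower (median 0.40, or 0.13 without the 2 genes at or under 3 counts in both groups). In MDA-MB-231 3D 2 were higher and 7 lower (median -1.02, or -1.04 without the gene at or under 3 counts in both groups). On TPM 0 were higher and 8 lower in MDA-MB-231. The balance in A549 turned with the scale and filter, with 2 higher and 5 lower on TPM, 5 and 1 on TPM centred on the median gene, 5 and 2 with no filter on low counts, 4 and 1 with the length trend removed, and 3 and 2 without A549 3D replicate 2. Over all genes 5798 were higher and 5093 lower on centred TPM, and 5560 and 4984 with no filter. With the length trend removed 5062 were higher and 4826 lower, and without that replicate 5609 and 5022. NDST1, the N-deacetylase and N-sulfotransferase that opens the modification, averaged 34.5 ± 8.17 CPM in A549 3D against 123 ± 0.551 CPM in A549 2D, with 188 ± 3.42 CPM in MDA-MB-231 3D against 119.8 ± 8.99 CPM in MDA-MB-231 2D. It fell by 1.79 in A549 and rose by 0.65 in MDA-MB-231 (edgeR adjusted p = 4e-09 and 7.45e-05), where on TPM the MDA-MB-231 value was 0.24 and did not pass (limma adjusted p = 0.146). The 3-O-sulfotransferase HS3ST3B1 went the other way, as it rose by 3.49 in A549 and fell by 1.24 in MDA-MB-231 (edgeR adjusted p = 3.99e-08 and 2.18e-07). Its A549 level was low, at 3.45 ± 0.813 CPM in 3D against 0.295 ± 0.134 CPM in 2D. HS3ST1, another 3-O-sulfotransferase, rose by 2.57 in A549, to 4.78 ± 0.806 CPM in 3D against 0.754 ± 0.371 CPM in 2D (edgeR adjusted p = 2.65e-07). HS6ST2, a 6-O-sulfotransferase, fell to 0.160 ± 0.0921 CPM in MDA-MB-231 3D, against 3.97 ± 0.469 CPM in MDA-MB-231 2D, and GLCE, the epimerase, to 44.1 ± 4.91 CPM against 91.5 ± 3.02 CPM (edgeR adjusted p = 1.7e-07 and 2.87e-07).

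**Figure D4:**
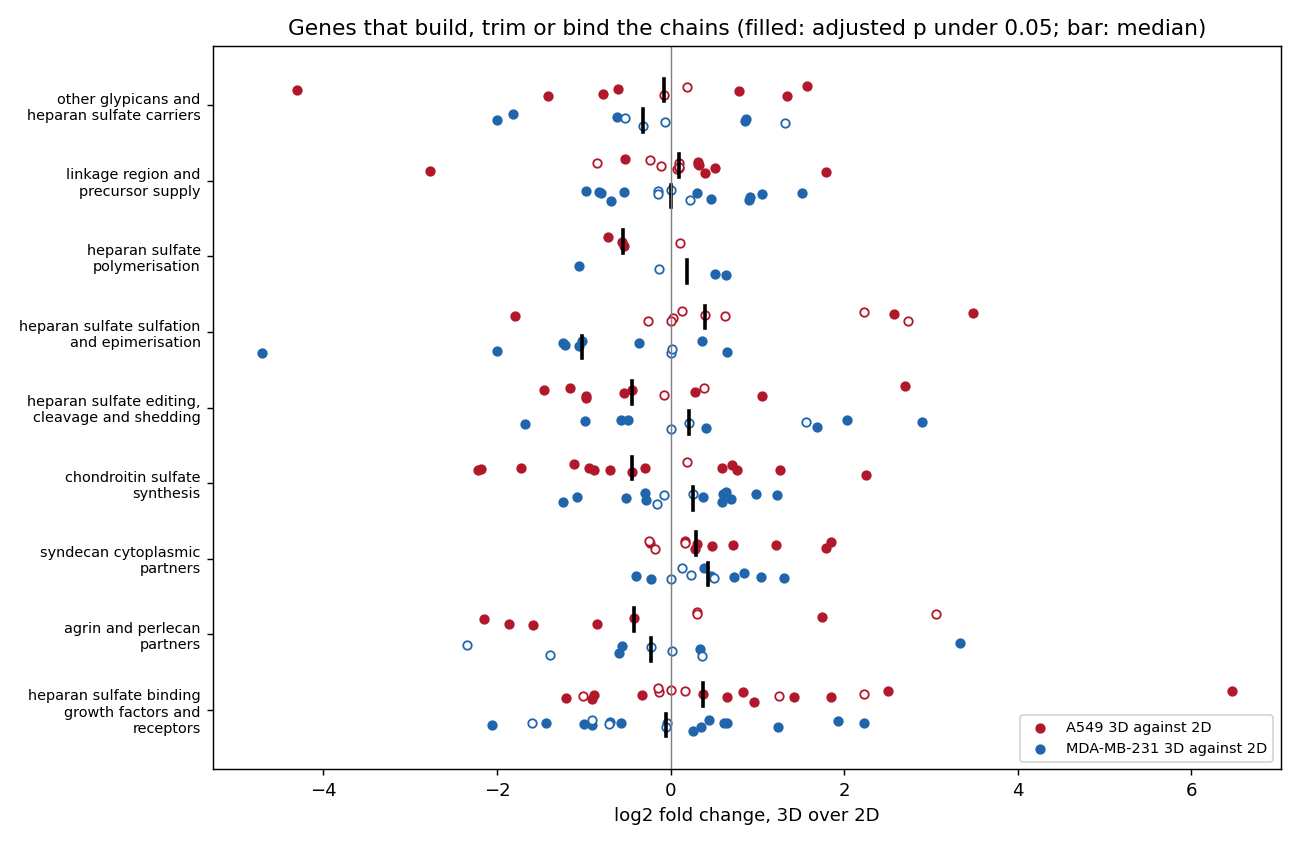
Log2 fold change of 3D over 2D for every tested gene of the 9 lists, A549 in red above MDA-MB-231 in blue, with filled points for an edgeR adjusted p under 0.05 and black bars for the median of each list. The sulfation and epimerisation list has its median at 0.40 in A549 and at -1.02 in MDA-MB-231; a gene with no count in either culture of a line sits at 0.

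Of the enzymes that edit, cleave or shed the proteoglycans, 11 of 14 were tested, with 3 higher and 6 lower in A549 3D (median -0.45). In MDA-MB-231 3D 4 were higher and 4 lower (median 0.21, or 0.31 without the gene at or under 3 counts in both groups). On TPM 1 were higher and 7 lower in A549, and 3 higher and 4 lower in MDA-MB-231. MMP7, a metalloprotease that can shed SDC1, rose by 2.70 in A549, to 68.3 ± 6.39 CPM in 3D against 10.5 ± 2.17 CPM in 2D (edgeR adjusted p = 1.45e-10). MMP14, a membrane metalloprotease, rose by 1.69 in MDA-MB-231, to 1716 ± 124 CPM in 3D against 534 ± 36.8 CPM in 2D, and MMP9 rose by 2.90 (edgeR adjusted p = 1.39e-09 and 1.54e-06). The sheddase ADAM17 fell by 0.54 in A549 and ADAM10 fell by 0.99 in MDA-MB-231 (edgeR adjusted p = 5.44e-05 and 2.9e-08). SULF2, which removes 6-O-sulfate, rose by 1.05 in A549 (edgeR adjusted p = 0.000163), was 0.36 on TPM and did not pass there (limma adjusted p = 0.0578), and had 0 CPM in MDA-MB-231.

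Chondroitin sulfate is the other chain that syndecans carry. Of its 16 enzymes 15 were tested, with 5 higher and 9 lower in A549 3D (median -0.45) and 7 higher and 5 lower in MDA-MB-231 3D (median 0.26). The TPM fit gave 2 higher and 9 lower in A549, and 3 higher and 7 lower in MDA-MB-231. In A549 DSE, a dermatan epimerase, fell by 2.22 and CSGALNACT1, which starts the chain, fell by 1.72 (edgeR adjusted p = 3.99e-11 and 4.72e-11). CHPF, the polymerising factor, rose in both lines, by 2.25 in A549 and by 1.23 in MDA-MB-231 (edgeR adjusted p = 1.85e-08 and 1.77e-06). In MDA-MB-231 DSEL, the second dermatan epimerase, fell by 1.24 and CHST12, a sulfotransferase, rose by 0.99 (edgeR adjusted p = 1.23e-06 and 1.56e-06).

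Among other glypicans and heparan sulfate carriers 9 of 11 were tested, with 3 higher and 4 lower in A549 3D (median -0.07) and 2 higher and 3 lower in MDA-MB-231 3D (median -0.32). On TPM 3 were higher and 4 lower in A549, and 2 higher and 4 lower in MDA-MB-231. SPOCK1, a secreted testican, fell by 4.30 in A549 and fell by 1.82 in MDA-MB-231 (edgeR adjusted p = 2.12e-12 and 4.84e-09). TGFBR3, the betaglycan coreceptor of TGF-beta, rose by 1.57 in A549 and fell by 2.00 in MDA-MB-231 (edgeR adjusted p = 3.28e-10 and 1.47e-10). CD44, the hyaluronan receptor with chain-bearing splice forms, rose by 1.34 in A549 and by 0.87 in MDA-MB-231 (edgeR adjusted p = 5.67e-08 and 4.86e-06). NRP1, a semaphorin and VEGF coreceptor, fell by 0.61 in A549 and rose by 0.86 in MDA-MB-231 (edgeR adjusted p = 6.78e-06 and 1.78e-07). SRGN, the serglycin core of secretory granules, was at 0.79 in A549 and -0.62 in MDA-MB-231 (edgeR adjusted p = 2.6e-07 and 2.22e-06).

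All 12 cytoplasmic partners of syndecans were tested, with 8 higher and 1 lower in A549 3D (median 0.29) and 6 higher and 2 lower in MDA-MB-231 3D (median 0.43). Over all genes 34.1% were higher and 31.5% lower in A549, and 33.4% and 34.2% in MDA-MB-231. The TPM fit gave 1 higher and 6 lower in A549, and 4 higher and 4 lower in MDA-MB-231. Without A549 2D replicate 1 or without replicate 2 the A549 count was 5, all higher. Over all genes 31% were higher and 28.5% lower without replicate 1, and 30.9% and 28.2% without replicate 2. SRC, the tyrosine kinase, rose by 1.79 in A549 and 0.85 in MDA-MB-231 (edgeR adjusted p = 1.91e-10 and 1.38e-06). PRKCA, the kinase that the SDC4 tail activates, rose by 0.72 and 0.73 (edgeR adjusted p = 5.35e-07 and 3.88e-07), and in A549 its change on TPM was 0.16 and did not pass (limma adjusted p = 0.0914). TIAM1, a Rac activator, rose by 1.22 in A549 (edgeR adjusted p = 0.000642), was 0.12 on TPM and did not pass there (limma adjusted p = 0.143). GIPC1, a PDZ adaptor, rose by 1.04 in MDA-MB-231 (edgeR adjusted p = 4.17e-07).

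Of the partners of agrin and perlecan 9 of 10 were tested, with 1 higher and 5 lower in A549 3D (median -0.42, or -0.63 without the gene at or under 3 counts in both groups) and 2 higher and 2 lower in MDA-MB-231 3D (median -0.23). On TPM 1 were higher and 5 lower in A549, and 1 higher and 4 lower in MDA-MB-231. NID1 and NID2, the nidogens that join laminin to collagen IV and bind perlecan, both fell in A549, with changes of -1.86 and -2.15 (edgeR adjusted p = 2.02e-07 and 8.66e-07). The other 3 that fell in A549 were FBLN2, ITGA2 and ITGB1, at -1.58, -0.42 and -0.85. LRP4, the agrin receptor, rose by 1.75 in A549 and fell by 0.56 in MDA-MB-231 (edgeR adjusted p = 4.36e-07 and 0.0322). MUSK, the kinase that LRP4 and agrin activate in muscle, rose by 3.34 in MDA-MB-231, to 18.1 ± 1.37 CPM in 3D against 1.78 ± 0.339 CPM in 2D (edgeR adjusted p = 1.23e-09). The integrin chain ITGA2 fell by 0.59 in MDA-MB-231 (edgeR adjusted p = 1.18e-05). DAG1, the dystroglycan that binds both proteoglycans, was at 0.34 there with an edgeR adjusted p of 0.0484, and did not pass when any 1 of the 6 MDA-MB-231 libraries was left out. The MDA-MB-231 count was 2 (1 higher, 1 lower) without MDA-MB-231 2D replicate 1 or 3 or without MDA-MB-231 3D replicate 1 or 2, and LRP4 did not pass in any of these (edgeR adjusted p = 0.0911, 0.0583, 0.0999 and 0.0766). Of the 15601 to 15791 genes tested in these fits, 4725 to 4939 were higher and 4866 to 5023 lower.

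Of the growth factors and receptors that bind heparan sulfate 19 of 24 were tested. In A549 3D 8 were higher and 4 lower (median 0.37, or 0.27 without the 3 genes at or under 3 counts in both groups). In MDA-MB-231 3D 8 were higher and 6 lower (median -0.05, or -0.04 without the gene at or under 3 counts in both groups). The TPM fit gave 6 higher and 7 lower in A549, and 3 higher and 8 lower in MDA-MB-231. HGF, hepatocyte growth factor, rose to 14.3 ± 6.22 CPM in A549 3D, against 0.146 ± 0.0312 CPM in A549 2D (edgeR adjusted p = 1.91e-08). The 4 genes that fell in A549 were VEGFA, FGF2, HBEGF and MET, the last 3 at -1.20, -0.88 and -0.33. VEGFA fell by 0.90 in A549 and rose by 1.93 in MDA-MB-231 (edgeR adjusted p = 2.29e-07 and 2.22e-11). FGFR4 rose by 1.42 in A549 and fell by 1.00 in MDA-MB-231 (edgeR adjusted p = 1.15e-08 and 0.00383). In MDA-MB-231 FZD7, a Wnt receptor, rose by 1.24 and SHH, a hedgehog ligand, by 2.23 (edgeR adjusted p = 5.39e-09 and 6.77e-09).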

How the data were processed

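RNA sequencing of 12 libraries of human cell lines was analysed, 3 in each of 4 groups by line and culture as the labels name them. Per the labels' protocols, TRIZOL was used for total RNA and a stranded library kit followed removal of ribosomal RNA. Expected counts and TPM were deposited per gene from RSEM, per the submitters' processing notes, which name hg19. Neither the version of RSEM nor its strand setting and annotation is stated in the labels. Deposited transcript lengths and effective lengths served to give mean fragment length.

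Expected counts were rounded, genes kept with filterByExpr (15304) and libraries scaled with TMM. The quasi-likelihood test of edgeR (version 4.0.16 in R 4.3.3) was applied to 1 model of the 12 libraries with a mean per group, two-sided, with Benjamini-Hochberg adjusted p over all genes tested and a threshold of 0.05, and was tested on simulated data. The simulated counts of a gene had the same spread in every group. That trial therefore does not cover the wider spread of A549 3D, where the model shares 1 estimate of spread over the groups. Limma 3.58.1, DESeq2 1.42.0, other scalings and filters, and fits without each library were alternatives, and a fit on TPM centred on the median gene of each library was chosen after seeing the data. Exact tests of 3 against 3 values cannot go below 0.10, so none were used. Floors of 3 counts reflect counting error alone, as PCR copies of a molecule are not independent. The labels name no batch.

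The members and gene lists were chosen with earlier results of these data known. All members are named, and of each list up to 3 genes per line with the smallest p among those that passed in 3D against 2D, plus genes that spell out a small count, and some are given in the other line too. The SDC4 pseudogene SDC4P had 0 to 2 counts per library, and the antisense genes of GPC3 and GPC6 had 0. Columns of other series numbered 0.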

Additional observations from a re-analysis of the deposited data

Results flagged for a closer look

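The change in Matrigel differed between A549 and MDA-MB-231, by the test of the difference itself (edgeR, A549 minus MDA-MB-231 on the log2 scale), for each of the 8 genes tested. The difference was -2.08 for SDC4, -1.44 for AGRN, -1.26 for HSPG2, -0.85 for SDC1 and -0.80 for GPC1. It was 0.99 for SDC3, 1.20 for GPC6 and 1.94 for SDC2. Over all genes 56.1% passed this test, and fragment length and ribosomal RNA moved with culture in both lines, whose part in the differences was not tested.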

How the results depend on the processing

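For the difference between lines, all 96 values of the 8 genes in fits that left out 1 library and all 96 under other settings kept their direction and passed. In A549 3D against 2D, the fits that left out 1 library passed 4 to 7 of the 8 genes, 7 without A549 3D replicate 3 and 4 in each other fit, where 59.1% to 68% of all genes passed (61.2% without that replicate). Under the other settings 13 values of the 8 genes gained a call in A549 and 2 lost one, and in MDA-MB-231 5 gained and 4 lost one, mostly on TPM. Limma voom with quality weights added SDC1 (-0.27) and SDC2 (1.41) in A549 and GPC1 (0.33) in MDA-MB-231, and removing the length trend added HSPG2 (-0.77) in A549 and GPC1 (0.51) in MDA-MB-231. Leaving out low-count filtering or the small RNA genes each added SDC1 (-0.26 and -0.25) in A549, and fitting only the libraries compared added GPC1 (0.31) in MDA-MB-231. Direction turned, with a call on 1 side, mostly on TPM, given here with a pseudocount of 0.1 and then of 1. In A549 3D against 2D these were B3GAT3 (-0.11, -0.10), EXT2 (-0.50, -0.49), FAM20B (-0.45, -0.43), GIPC1 (-0.32, -0.32), GLCE (-0.42, -0.40) and PAPSS1 (-0.24, -0.23). In MDA-MB-231 3D against 2D they were PAPSS1 (-0.12, -0.12) and TIAM1 (-0.28 with a pseudocount of 1). In A549 against MDA-MB-231 in 2D they were AGRN (-0.75, -0.73), GPC6 (-0.47, -0.38) and HSPG2 (-0.10, -0.09). On TPM centred on the median gene they were DSEL (0.17) and MMP14 (0.07) in A549, and NID2 (0.30) in MDA-MB-231. NID2 was near the floor there, with means of 0.0654 CPM in 3D and 0.172 CPM in 2D. SULF2 had 0 CPM in MDA-MB-231, so its value of 0.37 on that scale is the shift of the centring and no turn of the gene. The cause of these turns was not tested. Same-numbered libraries did not pair (correlations of deviations -0.034, 0.061 and 0.027 in A549 and -0.033, 0.068 and -0.073 in MDA-MB-231), and not every library correlated best with its own number. With the replicate number as a block, the 8 genes kept 4 calls in A549, 6 in MDA-MB-231 and 8 for the difference. Of the 15304 genes tested in that fit, 5007 were higher and 4660 lower in A549. In MDA-MB-231 4977 were higher and 5100 lower, and for the difference 4321 were higher and 3951 lower. Depth limits SDC2 in A549, GPC4 and GPC3.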
